A study of Mus musculus with 48 samples.

Results

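The genes described are 10 genes of cytotoxic lymphocytes, out of 34932 genes in the deposited quantification: the granzymes Gzma, Gzmb, Gzmc, Gzmd, Gzme, Gzmf and Gzmk, the pore-forming protein gene Prf1, the death ligand gene Fasl and the granule membrane gene Nkg7. They were chosen by name and described in all 12 groups of the study. RNA was sequenced from 48 sorted mouse cell populations, 4 per group: CD8+ and CD4+ T cells and CD45+CD4-CD8- immune cells, each taken from B16F10 melanomas (the T cells there are called TILs, tumor-infiltrating lymphocytes) and from the tumor-draining inguinal lymph node (TDLN) of WT and Yap-cKO C57BL/6J mice. Yap-cKO mice carried floxed Yap alleles, a lox-stop-lox EYFP reporter and a Cd4-driven Cre; the labels give the genotype as CD4Cre Yap flox. Cd4-Cre acts when thymocytes carry both CD4 and CD8, so both T cell populations are its targets, while most CD45+CD4-CD8- cells are not descended from them and differ between genotypes mainly in their host. B16F10 is one melanoma line, given under the skin to both genotypes. The study's methods describe a sort of both TIL populations out of each tumor, but the sources used here do not state whether libraries with the same replicate number came from one mouse or how many mice went into a library, so p-values measure the spread between these libraries.

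Cytotoxic lymphocytes kill by releasing granules toward a target cell. Perforin, the product of Prf1, opens pores in the target membrane, and granzymes are serine proteases that enter through them. Granzyme B cuts after aspartate and activates caspases, granzymes A and K cut after basic residues, and granzymes C to F are closely related proteases found in rodents. FasL kills by a separate route, by binding the receptor Fas on the target, and Nkg7 is a granule membrane protein needed for efficient degranulation.

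Of the 7 granzyme genes, 5 lie together on the minus strand of chromosome 14 of GRCm38. Gzme is at chr14:56117626-56120625, Gzmd at chr14:56129556-56132608, Gzmf at chr14:56205263-56211417, Gzmc at chr14:56231441-56234656 and Gzmb at chr14:56258838-56262260, within a span of 144.6 kb that also holds Gzmg and Gzmn. Gzma (chr13:113093825-113100981) and Gzmk (chr13:113171608-113225908) are neighbors on chromosome 13. Prf1 is at chr10:61297833-61304680, Fasl at chr1:161780689-161788495 and Nkg7 at chr7:43437073-43438249. All 10 are protein-coding genes, and the values below sum all their annotated transcripts.

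How far reads can be told apart between these genes differs along the cluster. The 60 coding bases around the active-site serine show it, with the codons of the conserved 6-residue motif that holds the serine in capitals; the exact motif was found in these 5 coding sequences and not in those of Gzma and Gzmc.
Gzmb: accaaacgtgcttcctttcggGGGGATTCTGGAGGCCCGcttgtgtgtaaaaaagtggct
Gzmd: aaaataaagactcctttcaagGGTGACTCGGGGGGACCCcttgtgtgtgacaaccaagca
Gzme: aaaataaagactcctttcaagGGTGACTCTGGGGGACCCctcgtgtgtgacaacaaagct
Gzmf: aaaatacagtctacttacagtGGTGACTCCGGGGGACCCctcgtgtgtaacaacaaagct
Gzmk: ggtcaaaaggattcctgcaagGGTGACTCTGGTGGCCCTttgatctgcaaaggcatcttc
Gzmd and Gzme differ at 4 of the 60 bases, Gzme and Gzmf at 8, Gzmb and Gzmd at 25 and Gzmb and Gzmk at 29. Over the whole coding sequence Gzmd and Gzme were 94.8% identical, Gzmd and Gzmf 84.7%, Gzmb and Gzmc 77.2%, and Gzma and Gzmk 61.4%. Salmon assigns reads by short exact matches. Of the 31-base words in Gzme transcripts, 42.1% also occur in transcripts of another gene, against 38.2% for Gzmd, 22.8% for Gzmf, 14.8% for Gzmc, 1.35% for Gzmb and 0.392% for Prf1, with none for Gzma, Gzmk, Fasl and Nkg7. Counts of Gzmd, Gzme and Gzmf are therefore uncertain as to which of these genes, or Gzmg, the reads came from, and Gzmc to a lesser degree.

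The promoters of the cluster were compared because its members did not move together. In the 250 bases before the annotated start (RefSeq, GRCm38.p6), the RUNX core TGTGGT was searched on both strands and is in capitals here, as ACCACA where it lies on the other strand. Gzmb is shown from chr14:56262335-56262584 and Gzmc from chr14:56234658-56234907, both on the minus strand.
Gzmb: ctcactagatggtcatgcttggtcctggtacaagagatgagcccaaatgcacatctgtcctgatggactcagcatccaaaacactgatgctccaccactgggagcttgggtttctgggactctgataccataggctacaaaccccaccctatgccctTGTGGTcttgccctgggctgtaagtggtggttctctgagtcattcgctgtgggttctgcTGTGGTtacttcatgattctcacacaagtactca
Gzmc: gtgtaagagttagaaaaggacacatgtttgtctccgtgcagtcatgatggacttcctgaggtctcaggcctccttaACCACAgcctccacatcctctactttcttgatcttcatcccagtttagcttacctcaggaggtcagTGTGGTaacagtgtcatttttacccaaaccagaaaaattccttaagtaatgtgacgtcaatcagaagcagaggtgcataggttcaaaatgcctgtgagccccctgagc
The RUNX letters occur in 8 of the 10 promoters, against 14% of 32536 mouse promoters of that length. Each of the 5 promoters on chromosome 14 holds 2 copies. Those of Gzmc, Gzmd, Gzme and Gzmf share most letters around both copies, so the 5 are not 5 independent cases. The Gzmb promoter does not show these shared letters. The T-box letters AGGTGT occur in 4 of 10 (Gzma, Gzmk, Prf1 and Nkg7) against 11.9% of all, the AP-1 letters TGANTCA in 1 of 10 (Gzmb) against 6.73%, and GGAATG, the core bound by the TEAD partners of Yap, in 0 of 10 against 12.6%. These are matches of letters, with no measurement of binding.

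The sorted populations carried the genes they were sorted for. Cd4 was 101 to 1080 CPM (read counts scaled to library size) in the CD4+ libraries and at most 5.60 CPM in the CD8+ libraries, and Cd8a was 216 to 1273 CPM in the CD8+ libraries and at most 7.47 CPM in the CD4+ libraries. Yap1 was 13 to 26.8 CPM in WT CD8+ TILs and 2.32 to 6.45 CPM in Yap-cKO CD8+ TILs (log2 fold change -2.21, adjusted p = 0.0180), and 15.1 to 26.7 against 1.59 to 5.74 CPM in CD4+ TILs (-2.58, adjusted p = 0.00974); in the TDLN the T cell ranges of both genotypes overlapped. Libraries held 12656302 to 24213689 reads in genes, so 3 counts, the floor used for detection, are 0.124 to 0.237 CPM per library, counting error only. The tumor libraries also held RNA of tumor cells. The summed level of the melanoma genes was 3824 to 13580 CPM in WT CD8+ TILs against 37.3 to 2514 CPM in Yap-cKO CD8+ TILs, 5659 to 17120 against 159 to 2358 CPM in CD4+ TILs, and at most 24.8 CPM in every TDLN library. The Yap1 difference between genotypes in TILs moved with the melanoma genes, and the part of tumor cells in it was not tested. The 15 T cell genes summed to 2431 to 6932 CPM in WT and 7828 to 8498 CPM in Yap-cKO CD8+ TILs, and to 2088 to 8202 against 8160 to 13530 CPM in CD4+ TILs. In such bulk samples fewer cells of a type and less RNA per cell cannot be told apart, and every comparison between genotypes in TILs carries this difference in T cell gene level.

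**Figure D1:**
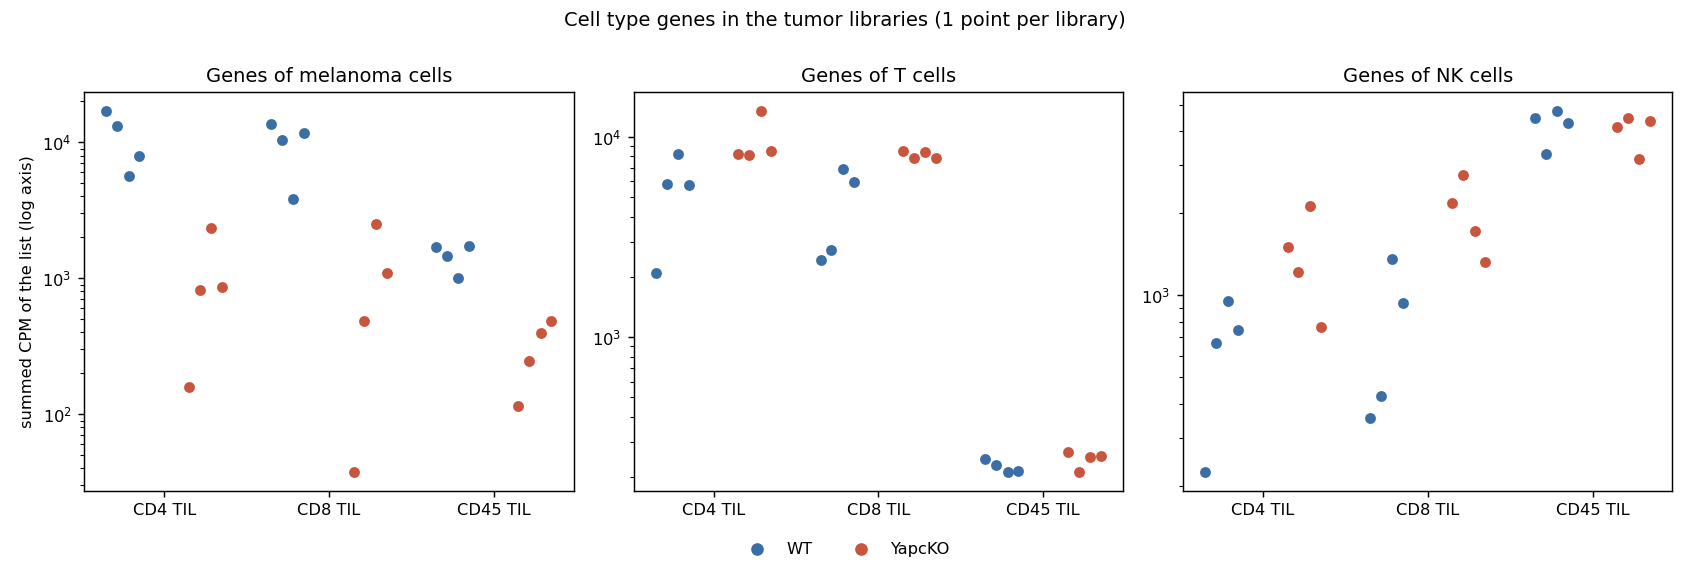
Summed CPM (log axis) of genes of melanoma cells, T cells and NK cells in each tumor library, 1 point per library, WT in blue and Yap-cKO in red; CD45 TIL stands for the CD45+CD4-CD8- cells of the tumor. WT T cell libraries sit higher for melanoma genes, with no overlap between genotypes in CD4, CD8 or CD45 libraries, and the NK cell genes are highest in the CD45 libraries.

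Levels between genes were compared per transcript length, in TPM, which is scaled to transcript length and depth and was summed over a gene's transcripts. In WT CD8+ TILs the order of mean TPM was Nkg7 (2310 ± 1185, SD, n = 4), Gzmk (214.6 ± 157), Gzmb (170.3 ± 88.4), Gzma (166.6 ± 163), Prf1 (56.7 ± 28.6), Fasl (56.3 ± 32.5) and Gzmc (3.23 ± 2.90). Gzmk, Gzmb and Gzma do not differ beyond their spread there, and neither do Prf1 and Fasl. In WT CD45+CD4-CD8- tumor cells Gzma (208.3 ± 41.5) and Nkg7 (195.8 ± 17.9) led and did not differ beyond their spread, Gzmc (51.7 ± 26.2) and Gzmb (46.9 ± 18.7) followed, and Gzmk was at 1.23 ± 0.898 TPM.

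The mix of granzymes thus differed by population. Of the summed TPM of the 7 granzymes, Gzmk made up 41.0% in WT CD8+ TILs (range over 4 libraries 24.2 to 55.6), Gzmb 33.1% (23.5 to 44.6) and Gzma 25.2% (12.8 to 36.2). In WT CD4+ TILs the share of Gzmb was 55.0% (44.0 to 70.6), of Gzmk 23.2% and of Gzma 19.7%. In WT CD45+CD4-CD8- tumor cells Gzma made up 68.0% (61.6 to 78.6), Gzmc 16% (11 to 20.7) and Gzmb 15%. In the TDLN Gzmb led among CD4+ cells (73.7% in WT, 67.0% in Yap-cKO) and Gzma among CD45+CD4-CD8- cells (80.7% and 84.4%), at much lower sums in the T cells. The sum in WT was 21.2 ± 1.84 TPM in CD4+ and 18.0 ± 9.44 TPM in CD8+ TDLN cells, against 192 ± 137 and 555 ± 390 TPM in the corresponding TILs.

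**Figure D2:**
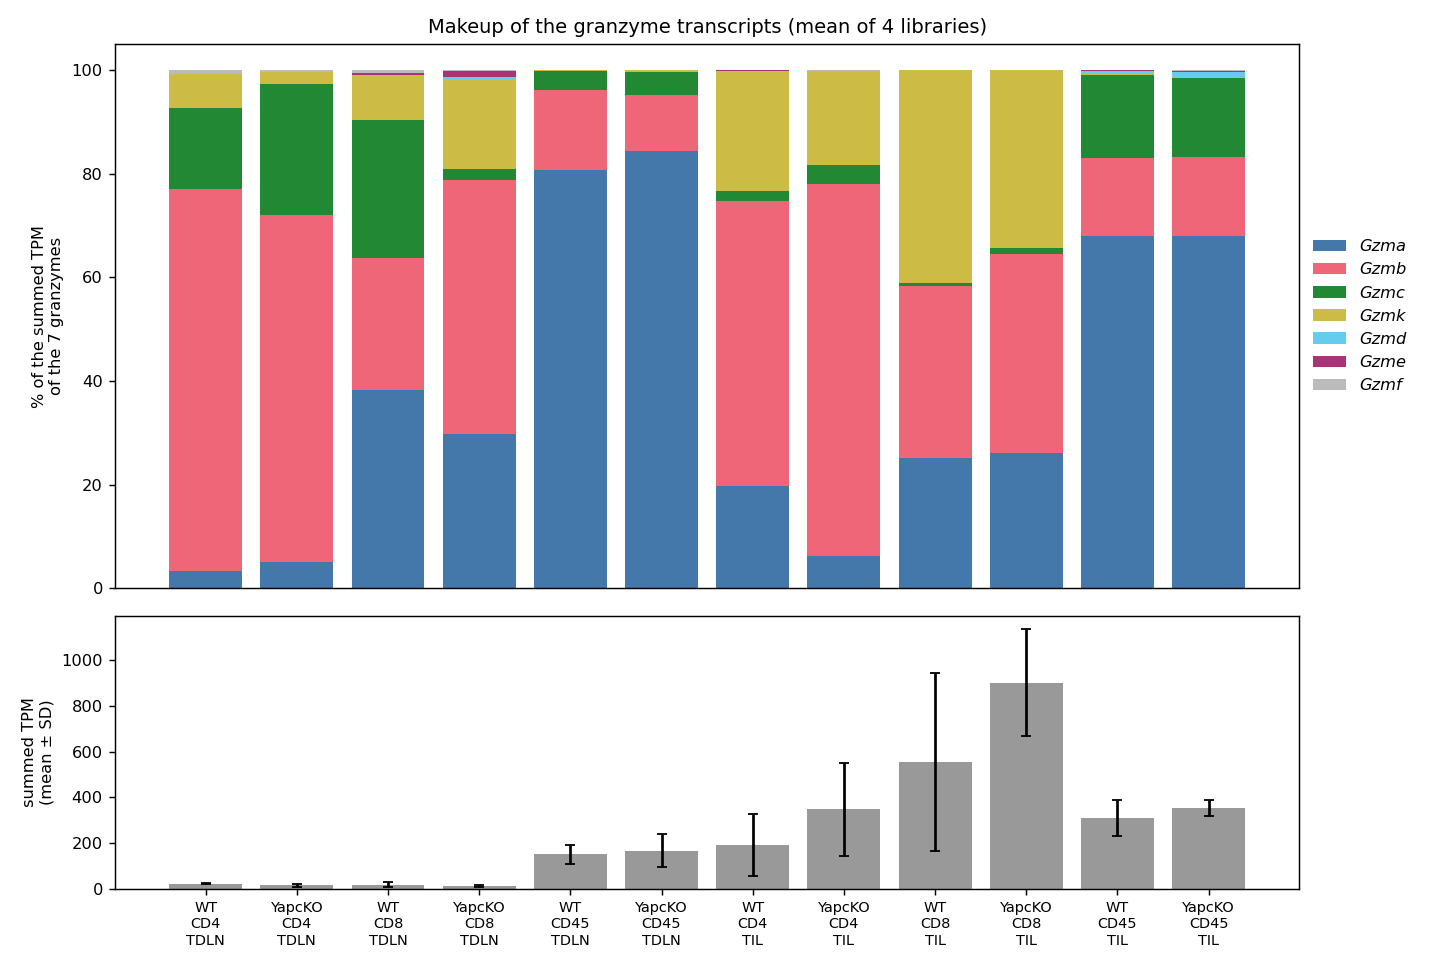
Top, each granzyme's mean share (%) of the summed TPM of the 7 granzymes in each group of 4 libraries; bottom, that sum in TPM, mean ± SD. CD8 TIL bars hold mostly Gzmk, Gzmb and Gzma, CD4 TIL bars mostly Gzmb, and CD45 bars mostly Gzma, with Gzmc at 16% in WT tumor; the sums in T cell TDLN groups are the lowest.

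Gzmb was low in the node and high in the tumor in both T cell populations. In WT CD8+ cells its 4 libraries gave 3.51, 5.20, 4.14 and 4.12 CPM in the TDLN and 53.9, 112, 234 and 221 CPM in the tumor. The groups do not overlap, and the log2 fold change was 5.23 (SE 0.47, adjusted p = 1.1e-05, edgeR quasi-likelihood test with Benjamini-Hochberg adjustment over all genes tested, as for all adjusted p-values here). In WT CD4+ cells Gzmb was 12.9, 14.3, 18.5 and 12.4 CPM in the TDLN and 28.3, 58.8, 144 and 114 CPM in TILs, a log2 fold change of 2.59 (SE 0.44, adjusted p = 0.000481). The Yap-cKO libraries showed the same separation, with log2 fold changes of 5.61 in CD8+ and 4.61 in CD4+ cells (adjusted p = 1.96e-05 and 0.000796). In WT CD45+CD4-CD8- cells Gzmb rose less, from 18.8 to 27.2 CPM in the TDLN to 38.8 to 87.3 CPM in the tumor (1.32, SE 0.28, adjusted p = 0.00311).

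Gzmk rose most of the 10 genes between node and tumor in CD8+ cells, in both genotypes. WT CD8+ TDLN libraries held 0.308, 2.15, 0.871 and 1.10 CPM and WT CD8+ TILs 66.2, 102, 273 and 80.5 CPM (6.90, SE 0.67, adjusted p = 1.75e-05). In WT CD4+ cells it went from 0.739 to 1.17 CPM to 3.07, 28.7, 59.4 and 25.3 CPM (4.98, SE 0.71, adjusted p = 0.000146). The first CD4+ TIL library, the lowest, is also the lowest of its group in summed T cell genes (2088 CPM). In Yap-cKO CD8+ cells the log2 fold change was 7.04 (adjusted p = 1.96e-05). In Yap-cKO CD4+ cells the TDLN libraries held 16, 3, 0 and 0 Gzmk counts and the TILs 711, 459, 670 and 401, so Gzmk passed the count filter there through the TILs and its fitted fold gives no size. In CD45+CD4-CD8- cells Gzmk stayed at or below 2.22 CPM in all 16 libraries.

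Gzma rose in TILs as well, with a wide spread. WT CD8+ cells gave 1.97, 9.40, 2.91 and 2.73 CPM in the TDLN and 12.6, 42.0, 204 and 82.8 CPM in the tumor (4.36, SE 0.80, adjusted p = 0.00112). WT CD4+ cells gave 0.117, 1.17, 0 and 0.227 CPM in the TDLN and 3.41, 3.74, 51.6 and 35.2 CPM in TILs. The TDLN values rest on 2, 24, 0 and 4 counts, so Gzma passed the count filter there through the TILs; the groups do not overlap, and the fitted fold gives no size. Within both of these tumor groups the libraries differed by more than 10-fold. In WT CD45+CD4-CD8- cells Gzma was already 51.5 to 71.8 CPM in the TDLN and 104 to 171 CPM in the tumor (1.16, SE 0.23, adjusted p = 0.00214). In Yap-cKO it rose in CD8+ cells (6.36, adjusted p = 0.000181). In Yap-cKO CD4+ cells it was at 10, 7, 1 and 7 counts in the TDLN and 83, 292, 120 and 156 counts in TILs, again tested through the TILs, and in CD45+CD4-CD8- cells the difference of 0.99 (adjusted p = 0.0201) fell under the fold threshold.

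Gzmc followed another order from its neighbor Gzmb. It was highest in CD45+CD4-CD8- tumor cells, at 24.1, 19.0, 46.4 and 56.8 CPM in WT, against 5.82, 2.58, 1.15 and 2.05 CPM in the same cells of the TDLN (3.64, SE 0.55, adjusted p = 0.000413; in Yap-cKO 3.16, adjusted p = 0.000544). In WT T cells tumor and node overlapped, with 0.483 to 4.27 CPM in CD8+ TILs against 0.580 to 4.67 CPM in the TDLN. In Yap-cKO CD8+ cells the TDLN libraries held 7, 0, 3 and 1 counts and the TILs 31, 119, 71 and 153; the gene passed the count filter only through the TILs, so no fold is given. In Yap-cKO CD4+ cells tumor exceeded node by 1.61 (SE 0.42, adjusted p = 0.0200; 0.0589 without CD4+ TDLN replicate 3).

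Gzmd, Gzme and Gzmf passed the floor almost only in CD45+CD4-CD8- tumor cells. Gzmd was 0.120, 0.482, 1.96 and 1.77 CPM in WT libraries and 1.19, 2.07, 0.257 and 6.30 CPM in Yap-cKO libraries, and Gzme 0.0600, 0.193, 0.915 and 0.672 CPM in WT libraries and 0.375, 0.427, 0.0513 and 1.40 CPM in Yap-cKO libraries. The libraries rank the same way for both genes, which share much of their sequence. In WT, replicate 1 was itself under the floor of 3 counts, with 2 Gzmd counts and 1 Gzme count, and the means rest mostly on replicates 3 and 4. The Yap-cKO means rest in large part on replicate 4. No bound on the fold over the TDLN is therefore given for either genotype. Gzmf was at 0 in all 4 WT libraries, and in Yap-cKO at 0, 0.366, 0 and 2.29 CPM, with 36 of its counts in replicate 4 and 6 in replicate 2. In the other groups Gzmd stood at or under 3 counts in every library, Gzme in all but 1 (Yap-cKO CD8+ TDLN, 0.239 CPM) and Gzmf in all but 1 (Yap-cKO CD4+ TIL, 0.370 CPM).

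Prf1 fell in WT CD4+ cells, where Gzmb and Gzmk rose, and was not called in CD8+ cells. It was also not called in WT CD45+CD4-CD8- cells (0.40, SE 0.26, adjusted p = 0.223). WT CD8+ cells held 140, 154, 135 and 106 CPM in the TDLN and 50.9, 43.4, 115 and 152 CPM in TILs (-0.52, SE 0.37, adjusted p = 0.284), so Prf1 was already high in node CD8+ cells in which Gzmb, Gzmk and Gzma were each under 10 CPM. WT CD4+ cells held 22.7, 56.6, 25.4 and 27.7 CPM in the TDLN and 5.0, 9.36, 28.3 and 10.2 CPM in TILs. The groups overlap through 1 TIL library, and the log2 fold change was -1.31 (SE 0.48, adjusted p = 0.0405). This call was lost when libraries were scaled on 15 pan-leukocyte genes, at -0.10 (adjusted p = 0.867), and without WT CD4+ TDLN replicate 2 (adjusted p = 0.137) or WT CD4+ TIL replicate 1, 2 or 4 (adjusted p = 0.111, 0.120 and 0.0977). In Yap-cKO the difference was -0.19 in CD4+ and 0.65 in CD8+ cells, neither called, and 1.05 in CD45+CD4-CD8- cells (SE 0.28, adjusted p = 0.00849), a value that dropped under the fold threshold without TDLN replicate 1 (0.85) or 2 (0.87).

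Fasl rose in the tumor in CD8+ cells of both genotypes and was not called in CD4+ cells. Nor was it called in WT CD45+CD4-CD8- cells (0.58, SE 0.30, adjusted p = 0.130). In WT CD8+ cells it was 13.6, 35.6, 15.3 and 35.9 CPM in the TDLN and 40.3, 56.7, 129 and 54.2 CPM in the tumor (1.54, SE 0.43, adjusted p = 0.0134). In WT CD4+ cells it was already 58.2 to 85.3 CPM in the TDLN and 13.5 to 85.4 CPM in TILs, with overlapping groups (-0.17, SE 0.43, adjusted p = 0.770); in Yap-cKO CD4+ cells the difference was 0.35 (adjusted p = 0.552). In Yap-cKO CD8+ cells it ranged from 10.9 to 27.2 CPM in the TDLN and from 125 to 203 CPM in the tumor (3.33, SE 0.33, adjusted p = 0.000107), and in CD45+CD4-CD8- cells by 1.13 (SE 0.29, adjusted p = 0.00624), or 0.93 and no longer called without TDLN replicate 1.

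Nkg7 was the most abundant of the 10 in CD8+ cells of both tissues. WT CD8+ cells held 686, 1364, 1051 and 683 CPM in the TDLN and 691, 519, 1776 and 1404 CPM in TILs, which overlap (0.26, SE 0.42, adjusted p = 0.648). CD4+ cells differed strongly by tissue, with 9.01, 31.1, 14.2 and 13.6 CPM in the WT TDLN and 94.4, 216, 555 and 285 CPM in TILs (4.10, SE 0.55, adjusted p = 8.21e-05; Yap-cKO 5.36, adjusted p = 0.000594). In Yap-cKO CD8+ cells Nkg7 ranged from 515 to 1031 CPM in the TDLN and from 1163 to 2180 CPM in TILs, a rise of 1.27 (SE 0.27, adjusted p = 0.00759). WT CD45+CD4-CD8- cells held 62.0 to 75.8 CPM in the TDLN and 106 to 135 CPM in the tumor. That difference of 0.82 (SE 0.19, adjusted p = 0.00529) fell under the fold threshold. So did 0.99 in Yap-cKO CD45+CD4-CD8- cells (SE 0.37, adjusted p = 0.0391), which DESeq2, length offsets, pan-leukocyte scaling and the block called. Pan-leukocyte scaling also called the WT difference (1.27, adjusted p = 0.00254).

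**Figure D3:**
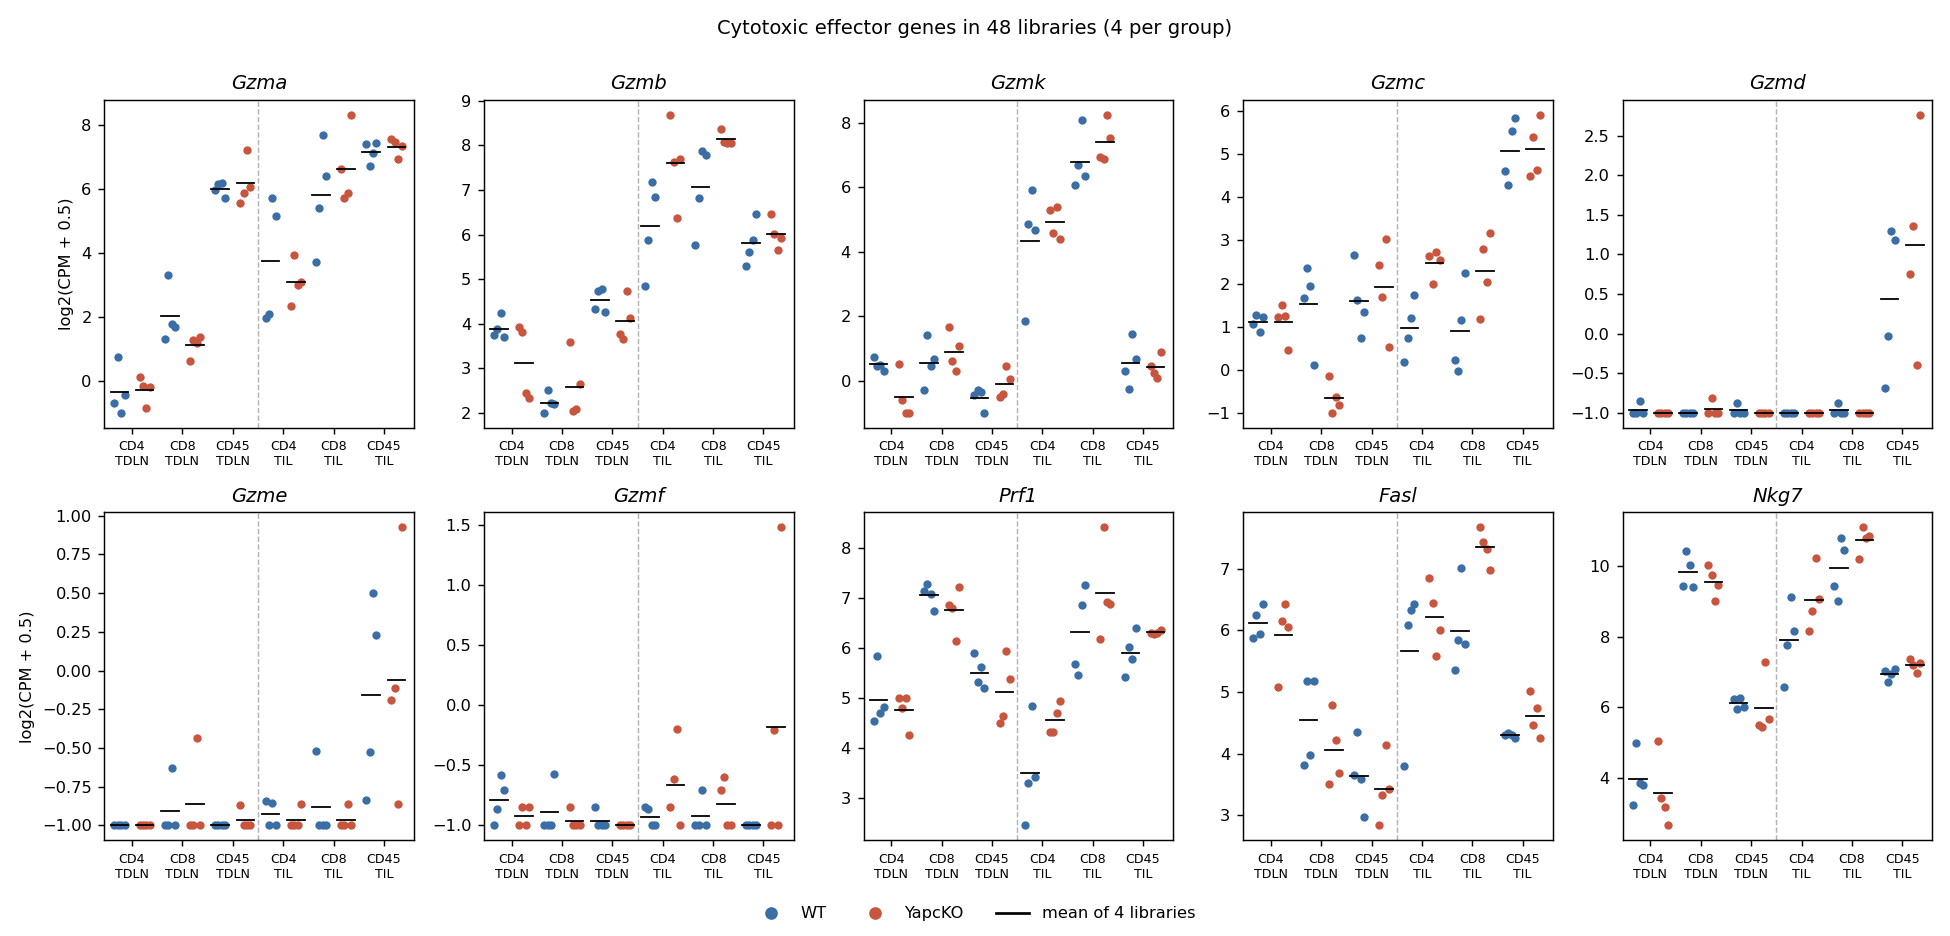
log2(CPM + 0.5) of the 10 genes in all 48 libraries, 1 point per library, WT in blue and Yap-cKO in red, with a black line at the mean of each 4; the dashed line parts TDLN from tumor, and CD45 stands for CD45+CD4-CD8- cells. Gzmb, Gzmk and Gzma of T cells lie higher right of the line, Prf1 and Nkg7 of CD8 cells are high on both sides, and Gzmd, Gzme and Gzmf lie near the bottom except in CD45 tumor libraries.

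In counts, a gene was called at an adjusted p under 0.05 with a log2 fold change beyond 1. Between tumor and TDLN, 4 of the 7 members tested were higher and 1 lower in WT CD4+ cells, against 22.9% of all genes tested higher and 14.4% lower; the median log2 fold change of the members was 2.59, against -0.03 over all genes. In WT CD8+ cells 4 of 7 were higher (22.5% of all genes; 15.2% lower), with a median of 1.54, and in WT CD45+CD4-CD8- cells 3 of 6 (21.9% higher and 18.0% lower over all genes), with a median of 0.99. In Yap-cKO the counts were 5 of 7 in CD4+ cells (12.4% and 6.07% of all genes), 6 of 7 in CD8+ cells (10.9% and 5.01%) and 4 of 7 in CD45+CD4-CD8- cells (21.8% and 18.5%), with none lower. Some genes tested had at most 1 TDLN library at 10 counts or more and passed the count filter through the tumor libraries alone, which favors a higher value there. Those called were Gzma in CD4+ cells of both genotypes, Gzmk in Yap-cKO CD4+ cells and Gzmc in Yap-cKO CD8+ cells. Gzmk in Yap-cKO CD45+CD4-CD8- cells passed in the same way and was not called (0.88, adjusted p = 0.182). The melanoma genes moved with every one of these contrasts. So did genes of other immune cells: in WT CD45+CD4-CD8- cells the summed B cell genes were 6482 to 8364 CPM in the TDLN and 754 to 1558 CPM in the tumor, the macrophage and monocyte genes 186 to 3528 and 21150 to 29870 CPM, and the NK cell genes 394 to 858 and 3298 to 4756 CPM, while in WT CD8+ cells the macrophage and monocyte genes were 6.83 to 32.4 CPM in the TDLN and 229 to 548 CPM in TILs. The part of these cells in the members' differences was not tested. Scaling on pan-leukocyte genes shifted the median of all genes to 1.5 in WT CD4+, 1.67 in WT CD8+ and 0.34 in WT CD45+CD4-CD8- cells. It changed the split of calls over all genes from 3203 higher and 2024 lower to 7919 and 148 in WT CD4+ cells, from 3121 and 2114 to 8905 and 122 in WT CD8+ cells, from 3045 and 2505 to 4078 and 1367 in WT CD45+CD4-CD8- cells, and in Yap-cKO from 1684 and 823 to 2612 and 415 in CD4+ and from 1456 and 669 to 2071 and 279 in CD8+ cells.

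**Figure D4:**
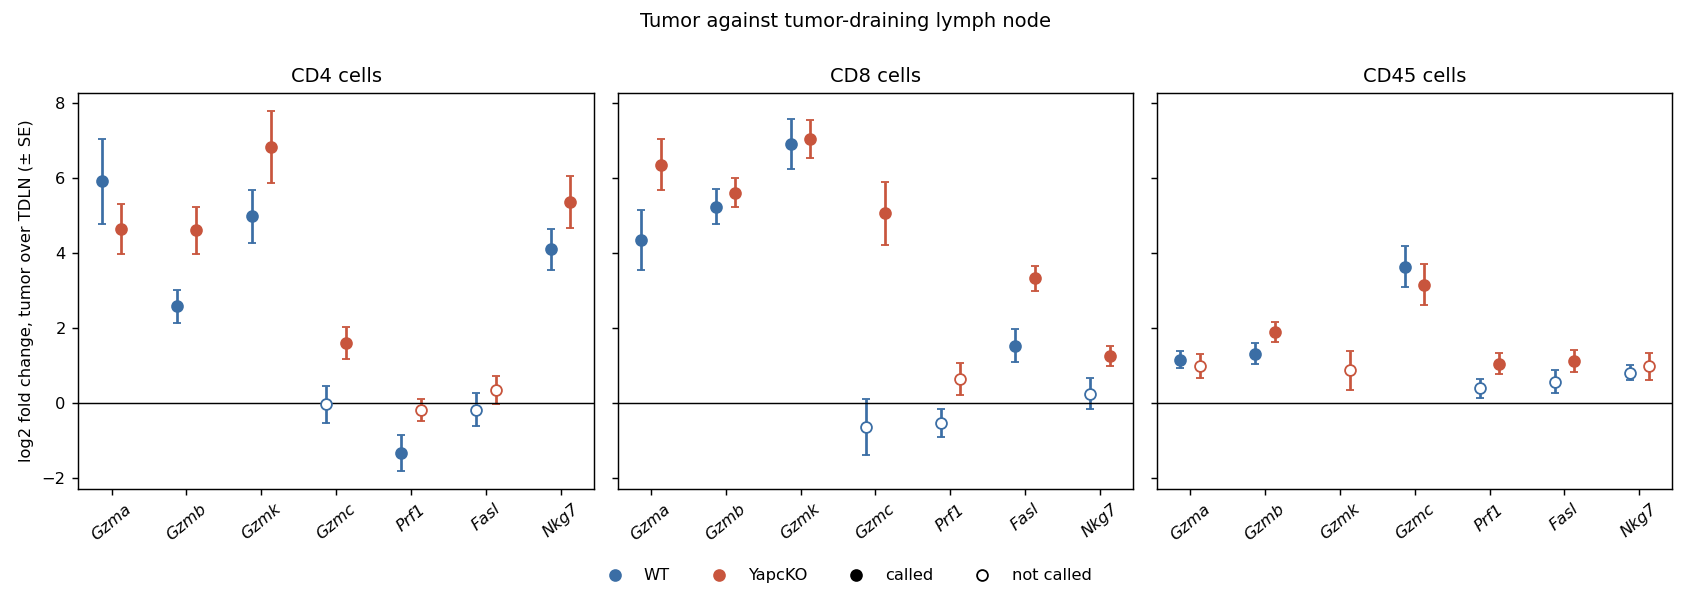
log2 fold change of tumor over TDLN (± SE) for CD4, CD8 and CD45 (CD45+CD4-CD8-) cells, WT in blue and Yap-cKO in red; filled points passed the adjusted p and fold thresholds. Gzma, Gzmb and Gzmk of T cells are filled in both genotypes, and Prf1 lies below 0 in WT CD4 cells (-1.31); the heights of Gzma in CD4, of Gzmk in Yap-cKO CD4 and of Gzmc in Yap-cKO CD8 cells rest on TDLN libraries near the floor of 3 counts and give no size.

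Nkg7 and Prf1 were higher in CD8+ than in CD4+ cells of the TDLN in both genotypes. In the WT TDLN Nkg7 was 5.81 log2 units higher in CD8+ cells (SE 0.47, adjusted p = 0.000154) and Prf1 2.02 higher (SE 0.31, adjusted p = 0.00459), while Gzmb was lower by -1.77 (SE 0.26, adjusted p = 0.00367) and Fasl by -1.47 (SE 0.35, adjusted p = 0.0485). That is 2 of 7 higher and 2 of 7 lower, against 1.6% and 2.16% of all genes. The Fasl call was lost on leaving out any 1 library (adjusted p = 0.0582 to 0.132) except WT CD8+ TDLN replicate 4. With the replicate number as a block Gzma was also called (adjusted p = 0.00238, and 0.0794 without the block). Its CD4+ libraries held 2, 24, 0 and 4 counts, against 32, 179, 40 and 47 in CD8+ cells. Gzma thus passed the count filter through the CD8+ cells, and its fitted fold gives no size. In the Yap-cKO TDLN Nkg7 (5.75, adjusted p = 0.000412) and Prf1 (2.02, adjusted p = 0.00177) were again higher in CD8+ cells, and Fasl was lower (-1.88, adjusted p = 0.0244). With Gzmc, at 7, 0, 3 and 1 counts in CD8+ and 31, 42, 39 and 16 counts in CD4+ cells and tested only through the CD4+ cells, this makes 2 of 7 each way against 1.3% and 1.2% of all genes. The Fasl call was lost without CD8+ replicate 1 or 4 or CD4+ replicate 2, 3 or 4 (adjusted p = 0.0625 to 0.0921) and the Gzmc call without CD8+ replicate 2, 3 or 4 (0.0570 to 0.109).

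In WT TILs 0 of 7 members were called between CD8+ and CD4+ cells without the block, against 0.0701% of genes higher and 0.0491% lower; 3 members had an unadjusted p under 0.05, and DESeq2 called 2, Prf1 and Nkg7; pan-leukocyte scaling changed the split over all genes from 10 higher and 7 lower to 12 and 4. With the block 3 were called, against 0.322% higher and 0.4% lower: Prf1 at 2.91 (adjusted p = 0.0109), Gzma at 2.17 (0.0414) and Nkg7 at 2.08 (0.0195). In Yap-cKO TILs 3 of 7 were higher in CD8+ cells, Gzma by 3.95 (SE 0.68, adjusted p = 0.0139), Prf1 by 2.80 (SE 0.48, adjusted p = 0.0136) and Gzmk by 2.58 (SE 0.38, adjusted p = 0.00725), against 1.13% higher and 1.36% lower over all genes. The block added Nkg7 (1.71, adjusted p = 0.0180) and Fasl (1.14, adjusted p = 0.0369), 5 of 7 against 2.04% and 2.36%. Without Yap-cKO CD4+ TIL replicate 1 the unblocked count was 1, with Gzma at an adjusted p of 0.0516 and Prf1 at 0.0537; Prf1 was also lost without CD4+ replicate 2 (0.0596) and Gzma without CD4+ replicate 4 (0.0644).

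Compared with CD8+ TILs, CD45+CD4-CD8- tumor cells carried another set of these genes. In WT, Gzmc was higher by 4.45 (SE 0.68, adjusted p = 0.000497), and Gzmk (-6.84, adjusted p = 3.63e-05), Nkg7 (-3.07, adjusted p = 0.000174), Fasl (-1.79, adjusted p = 0.00205) and Gzmb (-1.33, adjusted p = 0.0288) were lower, while Gzma (0.85) and Prf1 (-0.48) were not called. This makes 1 of 7 higher and 4 of 7 lower, against 16.2% and 16.5% of all genes. The Gzmb call was lost without WT CD8+ TIL replicate 3 or 4 or WT CD45+CD4-CD8- replicate 1, 2 or 3 (adjusted p = 0.0738 to 0.0819). In Yap-cKO the same 5 genes were called in the same directions, with Gzmc at 2.82 (adjusted p = 0.00133) and Gzmk at -7.76 (adjusted p = 1.48e-06), against 18.0% and 14.5%. Pan-leukocyte scaling changed the split over all genes from 2301 higher and 2333 lower to 954 and 9958 in WT and from 2491 and 2006 to 1906 and 3465 in Yap-cKO. The summed NK cell genes moved with this contrast, at 3298 to 4756 CPM in WT CD45+CD4-CD8- tumor cells, 354 to 1362 CPM in WT CD8+ TILs and 394 to 858 CPM in WT CD45+CD4-CD8- TDLN cells. Ncr1, which encodes the NK receptor NKp46, was 42.6 to 59.5 CPM, 0.116 to 4.39 CPM and 11.6 to 41.9 CPM in these groups; the part of NK cells in the Gzmc and Gzma levels was not tested.

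The comparison of genotypes asks whether T cells lacking Yap carry more of the cytotoxic genes. Fasl was the only member that edgeR called. In CD8+ TILs it was 40.3, 56.7, 129 and 54.2 CPM in WT libraries and 203, 172, 159 and 125 CPM in Yap-cKO libraries, so that 3 of 4 WT libraries lay below all Yap-cKO libraries and WT replicate 3 lay just above the lowest of them. The log2 fold change was 1.26 (SE 0.35, adjusted p = 0.0415). Gzmb was 53.9, 112, 234 and 221 CPM in WT libraries and 329, 268, 264 and 266 CPM in Yap-cKO libraries, which do not overlap, but the difference of 0.90 (SE 0.39) had an adjusted p of 0.138. The other members had log2 fold changes between 0.51 (Gzmk) and 1.57 (Gzmc, SE 0.74, adjusted p = 0.161). One call among 7 tested compares with 3.03% of all genes called higher and 9.14% lower, and the median of the members was 0.88, against 0.08 over all genes.

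These differences moved with the T cell gene level. Scaled on the pan-leukocyte genes, the median of all genes was -1.26 and the split of calls over all genes went from 428 higher and 1291 lower to 4 and 7111; Fasl was then at 0.13 (adjusted p = 0.756), Gzmb at -0.12, Nkg7 at -0.37, Prf1 at -0.20, Gzma at 0.01, Gzmk at -0.53 and Gzmc at 0.66. Scaled on the 15 T cell genes, Fasl was at 0.27 (adjusted p = 0.575) and Gzmb at 0.02. Per 1000 counts of T cell genes, Gzmb was 33.5 ± 8.18 in WT and 34.6 ± 3.08 in Yap-cKO CD8+ TILs, and Fasl 16.3 ± 5.10 and 20.2 ± 3.49 (SD, n = 4), differences smaller than the larger SD. The Fasl call was also lost without WT replicate 1, 2 or 4 or Yap-cKO replicate 1, 2 or 4 (adjusted p = 0.0657 to 0.111). Macrophage genes were called higher in the Yap-cKO CD8+ TILs (C1qa by 2.40, Mrc1 by 2.65), with their sum at 229 to 548 CPM in WT libraries and 547 to 1649 CPM in Yap-cKO libraries. The summed NK cell genes were 354 to 1362 CPM in WT libraries and 1318 to 2754 CPM in Yap-cKO libraries, and genes of plasmacytoid dendritic cells 7.33 to 11.5 and 14.5 to 46.9 CPM. The part of these cells was not tested.

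**Figure D5:**
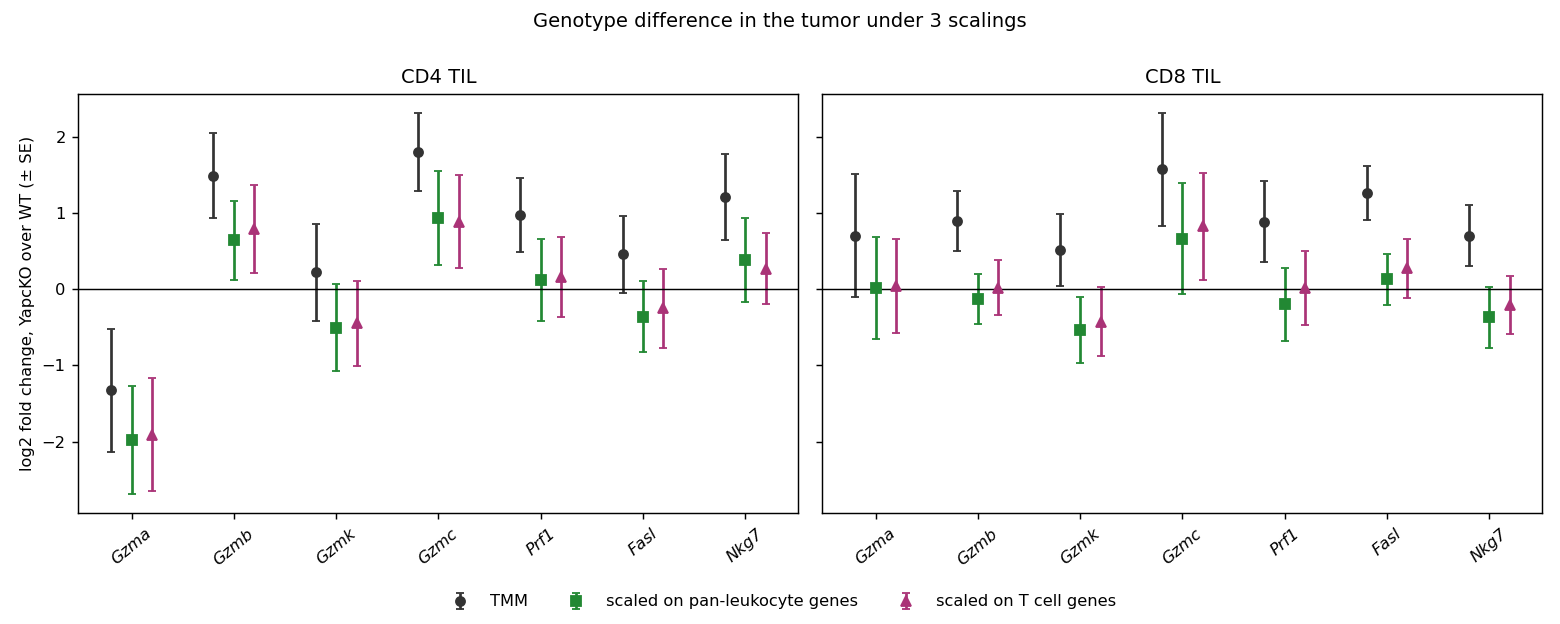
log2 fold change of Yap-cKO over WT (± SE) in CD4 and CD8 TILs under TMM scaling, scaling on pan-leukocyte genes and scaling on T cell genes. In CD8 TILs all 7 members lie above 0 under TMM. Under the other scalings they lie lower, on both sides of 0 (Fasl 1.26, 0.13 and 0.27, Gzmc 1.57, 0.66 and 0.82, Gzmk 0.51, -0.53 and -0.43). In CD4 TILs Gzma lies below 0 under each (-1.32, -1.98 and -1.91), not called.

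In CD4+ TILs 0 of 7 members were called by edgeR, against 1.36% of genes higher and 6.66% lower; 2 had an unadjusted p under 0.05, and DESeq2 called these 2, Gzmc (1.78, adjusted p = 0.00386) and Gzmb (1.49, adjusted p = 0.0499). Gzmc was 0.625, 1.16, 1.81 and 2.82 CPM in WT libraries and 5.77, 3.50, 6.11 and 5.38 CPM in Yap-cKO libraries, which do not overlap (1.79, SE 0.51, adjusted p = 0.0552). Gzmb was 28.3, 58.8, 144 and 114 CPM in WT libraries and 412, 197, 82.6 and 207 CPM in Yap-cKO libraries (1.49, SE 0.56, adjusted p = 0.133). The lowest Yap-cKO library, replicate 3, lies within the WT range, and without it 2 members were called. Gzma had the other sign at -1.32 (SE 0.81, adjusted p = 0.330), with 3.41, 3.74, 51.6 and 35.2 CPM in WT libraries and 4.56 to 14.8 CPM in Yap-cKO libraries, inside the WT range. Under pan-leukocyte scaling the median of all genes was -1.10, and the split over all genes went from 193 higher and 946 lower to 17 and 3198. Gzmb then stood at 0.64, Gzmc at 0.93, Nkg7 at 0.38 and Prf1 at 0.12. Fasl stood at -0.36, Gzmk at -0.50 and Gzma at -1.98 (adjusted p = 0.0538), and none of the 7 was called. The summed NK cell genes were 223 to 949 CPM in WT and 762 to 2118 CPM in Yap-cKO CD4+ TILs, and their part was not tested.

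The CD45+CD4-CD8- tumor cells showed no member called between genotypes by edgeR (0 of 8, and 0 with an unadjusted p under 0.05, by DESeq2 also 0), against 0.066% higher and 0.925% lower over all genes. Gzmb was 38.8 to 87.3 CPM in WT libraries and 49.9 to 88.0 CPM in Yap-cKO libraries, Gzma 104 to 171 and 121 to 185 CPM, and Prf1 42.4 to 84.2 and 77.4 to 82.0 CPM. All these ranges overlap.

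In the TDLN 0 of 6 members were called between genotypes in CD4+ cells (0.0308% of genes higher and 0.0154% lower), 0 of 7 in CD8+ cells (0.0079% each way) and 0 of 6 in CD45+CD4-CD8- cells (0.0149% and 0.0447%), with 0, 2 and 0 at an unadjusted p under 0.05 and 0, 1 and 0 called by DESeq2. Gzmc in CD8+ cells is the gene DESeq2 called. Its libraries held 43, 89, 46 and 10 counts in WT (2.65, 4.67, 3.34 and 0.580 CPM) and 7, 0, 3 and 1 counts in Yap-cKO (0.402, 0, 0.143 and 0.0636 CPM). The groups do not overlap, and 3 of 4 Yap-cKO libraries are at or under the floor. The gene passed the count filter only through the WT libraries, so no fold is given, and the tools differed: the adjusted p was 0.999 by edgeR, 0.00172 by DESeq2 and 0.0335 by edgeR without the count filter. In CD4+ TDLN cells Gzmc was 1.35 to 1.91 CPM in WT libraries and 0.875 to 2.31 CPM in Yap-cKO libraries. Gzma in CD8+ TDLN cells, the other gene under 0.05, had a log2 fold change of -1.29 (unadjusted p = 0.0346).

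Whether the genotype difference depended on tissue was tested with an interaction term, which called 0 of 7 members in CD4+ cells (0.205% and 1.15% of all genes), 0 of 7 in CD8+ cells (0.0% and 0.422%) and 0 of 8 in CD45+CD4-CD8- cells (0.0% and 0.0%). At an unadjusted p under 0.05 there were 2, 2 and 0, and DESeq2 called 0, 1 and 0. DESeq2 called Gzmc in CD8+ cells, which edgeR did not (adjusted p = 0.000317 and 0.0516); its value rests on the Yap-cKO TDLN libraries with 7, 0, 3 and 1 counts. The other member under 0.05 in CD8+ cells was Fasl, at 1.78 by edgeR (unadjusted p = 0.00484, adjusted p = 0.138). In CD4+ cells Gzmb had an interaction of 2.10 (unadjusted p = 0.0101, adjusted p = 0.166) and Gzmc of 1.73 (0.0127 and 0.187). Pan-leukocyte scaling changed the split over all genes from 0 higher and 63 lower to 7 and 4333 in CD8+ cells. In CD4+ cells the split went from 31 and 174 to 6 and 976.

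Genes that work with these effectors were followed as 6 lists; the shares of all genes called higher in the tumor were those given above, 22.9% in WT CD4+, 22.5% in WT CD8+, 21.9% in WT CD45+CD4-CD8-, 12.4% in Yap-cKO CD4+, 10.9% in Yap-cKO CD8+ and 21.8% in Yap-cKO CD45+CD4-CD8- cells. Effector cytokines and chemokines were called higher in the tumor in all 6 comparisons with the TDLN, 6 of 8 each time. In CD45+CD4-CD8- cells of both genotypes 1 of 8 was lower. Between genotypes in the TDLN, only 6 of the 8 passed the count filter in CD4+ and in CD8+ cells. In T cells these counts therefore hold genes that needed the TILs to pass the filter, and whose fitted folds give no size. Ccl3, Csf2, Ccl4 and Ccl5 rose in WT CD8+ cells, and no sizes are given for them. Inhibitors that protect cells from granzymes also rose in the tumor, 3 of 3 tested in WT and Yap-cKO CD4+ cells, 2 of 3 in WT and 3 of 3 in Yap-cKO CD8+ cells, and 4 of 4 and 3 of 4 in CD45+CD4-CD8- cells. Serpinb9, which encodes the inhibitor of granzyme B, rose by 1.5 log2 units in WT CD4+ cells (adjusted p = 0.00487) and by 2.14 in Yap-cKO CD8+ cells (adjusted p = 0.00151). Of 9 genes of granule exocytosis, 2 were higher in WT CD4+ cells, a share near that of all genes, 3 in WT CD8+, 2 in each Yap-cKO T cell population and 5 in CD45+CD4-CD8- cells of each genotype; Vamp8, a vesicle fusion protein, rose by 1.40 in WT CD4+ and 1.67 in WT CD8+ cells, and Unc13d, which primes granules for fusion, fell by 1.33 in WT CD8+ cells. Of 12 transcription factors of cytotoxic cells, 3 were higher and 3 lower in WT CD8+ cells. Zeb2 stood at 4.57 there and Tcf7, a factor of naive and memory T cells, at -2.44. In Yap-cKO CD8+ cells 6 were higher and 3 lower, with Tbx21, which encodes T-bet, at 2.07. Summed T cell genes were 9144 to 14570 CPM in WT CD8+ TDLN cells and 2431 to 6932 CPM in WT CD8+ TILs. Macrophage and monocyte genes were 6.83 to 32.4 and 229 to 548 CPM in these groups. The part of tumor cells and other immune cells in the differences of the companion genes was not tested. Of 7 genes of death ligands, their receptors and signaling, 0 were higher in WT CD4+ cells, 1 in CD8+ cells of each genotype and 2 in the other groups, and 1 was lower in WT CD45+CD4-CD8- cells. Of other granule contents, 0 of 6 tested were higher in WT CD8+ cells and 2 were lower, Gzmm (-1.35) and Ctsw (-1.20); 2 were higher and 1 lower in WT CD45+CD4-CD8- cells, 3 were higher in Yap-cKO CD45+CD4-CD8- cells, 1 was higher in Yap-cKO CD4+ cells, and 0 were called in WT CD4+ and Yap-cKO CD8+ cells.

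Between genotypes few of these genes were called, where the shares of all genes were 3.03% higher and 9.14% lower in CD8+ TILs and 1.36% higher and 6.66% lower in CD4+ TILs. In CD8+ TILs they were Ctsc (1.20), the protease that activates granzymes, and Srgn (1.04), the proteoglycan that holds them in granules, 2 of 6 granule contents; Tnfsf10, which encodes the death ligand TRAIL (1.32), 1 of 7 death ligands and receptors; and Stat4 (1.65) and Eomes (1.35), 2 of 12 transcription factors. None of 9 exocytosis genes, 4 inhibitors or 8 cytokines was called. In CD4+ TILs Stx11 (1.63), Tnfsf10 (1.61) and Prdm1 (1.67) were higher and Lamp1 lower (-1.24), with 0 of 8 cytokines and 0 of 4 inhibitors called. None of the 6 lists had a gene called between genotypes in the TDLN. The TIL values are scaled by TMM, with the same difference in T cell gene level between genotypes as above. Summed macrophage and monocyte genes were 229 to 548 CPM in WT and 547 to 1649 CPM in Yap-cKO CD8+ TILs. In CD4+ TILs they were 208 to 620.5 CPM in WT and 81.8 to 460 CPM in Yap-cKO libraries. The part of these cells in the companion genes was not tested.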

How the data were processed

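The authors trimmed reads (Trimmomatic, with FastQC for quality) and quantified mouse transcripts with Salmon 0.9.1 against mm10, per the submitters' processing notes; SMART-Seq v4 libraries carry no molecular identifiers and no strand. The deposited files give estimated counts (expected counts that need not be whole) and TPM per transcript and library, without pooling. Transcript identifiers without version were matched to GENCODE M21 (111787 of 112092; 0.0488 to 0.18% of counts per library were unmatched and left out), and estimated counts and deposited TPM were summed per gene. Counts were rounded and tested in edgeR 4.0.16 (R 4.3.3; quasi-likelihood, TMM, at least 10 counts in at least 4 libraries, Benjamini-Hochberg over all genes tested); the test was checked on simulated data. Displayed CPM use 1 TMM scaling over 48 libraries. Coordinates are GRCm38. The 10 genes, gene lists and tests were chosen with earlier results of these data known. All 10 genes are described in every group; of each companion list at most the 4 genes of smallest p in a comparison are named, and for Gzma, Gzmb and Gzmc the 3 genes with the most similar group means. Alternatives were DESeq2 1.42.0, no count filter, transcript length offsets, scaling on 15 pan-leukocyte or 15 T cell genes, the replicate number as a block, adjusted p alone and leaving out each library. All 72 pairs of replicates differed by more than counting noise (smallest chi-square per degree of freedom 19.3). Same-numbered libraries deviated together, with every correlation of their deviations over 0.1, between CD8+ and CD4+ cells in WT TDLN (0.433 to 0.834), WT TILs (0.115 to 0.750) and Yap-cKO TILs (0.162 to 0.653), and between CD45+CD4-CD8- cells and CD8+ cells in WT tumors (0.150 to 0.597); the blocked values are given there where they change a call. The pairing and the limit of 0.1 come from the data, since no label says what a number stands for. In WT TILs replicates 2 and 4 (0.180 and 0.115), and in Yap-cKO TILs replicate 2 (0.162), correlated more with a library of another number.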

Additional observations from a re-analysis of the deposited data

Results flagged for a closer look

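Of 91 sets of 4 libraries examined, 8 held 1 library far from the other 3 by Dixon's criterion on CPM. Chance alone passes it in about 1 in 20 for normally spread values. The criterion was used without a log scale and all 8 lay on the high side, so this rate need not hold here. Gzma reached 317 CPM in 1 Yap-cKO CD8+ TIL library, against 51.6 to 96.6 CPM in the others, and 9.40 CPM in 1 WT CD8+ TDLN library, against 1.97 to 2.91 CPM. Gzmb reached 329 CPM in 1 Yap-cKO CD8+ TIL library, against 264 to 268 CPM. Prf1 reached 56.6 CPM in 1 WT CD4+ TDLN library, against 22.7 to 27.7 CPM, and this library bears on the Prf1 call between tumor and node. Nkg7 reached 32.9 CPM in 1 Yap-cKO CD4+ TDLN library, against 5.85 to 10.3 CPM. In Yap-cKO CD45+CD4-CD8- TDLN cells Nkg7 reached 154 CPM in replicate 3, against 43.5 to 50.7 CPM; the same library was the highest of its group for Gzma (147 CPM), Gzmb (26.0 CPM), Prf1 (60.9 CPM), Fasl (17.2 CPM) and the summed NK cell genes (522 CPM, against 280 to 357 CPM). Gzmf reached 2.29 CPM in 1 Yap-cKO CD45+CD4-CD8- tumor library and Gzme 0.239 CPM in 1 Yap-cKO CD8+ TDLN library, both resting on few reads of genes that share sequence.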

How the results depend on the processing

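Counts of members called that moved by over 1.5 times, or changed from or to 0, are given here, with all ranges on leaving out libraries. Smaller moves included 6 between tumor and node in Yap-cKO CD45+CD4-CD8- cells (4 by edgeR) with DESeq2, length offsets or pan-leukocyte scaling, 4 between CD8+ and CD4+ cells in Yap-cKO TILs (3) with DESeq2, and 5 in the TDLN of each genotype (4) with DESeq2. Between genotypes, DESeq2 called 2 in CD4+ TILs (0 by edgeR) and 1 in the CD8+ TDLN (0), where edgeR without the count filter also called 1; the call in CD8+ TILs went to 0 with the replicate block, with pan-leukocyte scaling and with T cell scaling, and Gzmb there turned to -0.12 under pan-leukocyte scaling. Between tumor and TDLN, dropping the filter gave 6 in WT and 9 in Yap-cKO CD45+CD4-CD8- cells, by its construction testing genes near the floor; it gave 8 between Yap-cKO CD45+CD4-CD8- and CD8+ tumor cells. Between CD8+ and CD4+ TILs, WT gave 2 with DESeq2, 1 without the filter and 3 with the block, and Yap-cKO 5 with the block. The interaction in CD8+ cells gave 1 with DESeq2, without the filter and with pan-leukocyte scaling. Leaving out each library gave 0 to 2 between genotypes in CD4+ TILs (2 without Yap-cKO replicate 3, 1 without WT replicate 3 or 4) and in CD8+ TILs (2 without WT replicate 3), 0 in the other genotype comparisons, 4 to 5 between tumor and node in WT CD4+ and Yap-cKO CD4+ cells, 4 in WT CD8+, 3 in WT CD45+CD4-CD8-, 5 to 6 in Yap-cKO CD8+ and 2 to 6 in Yap-cKO CD45+CD4-CD8- cells (2 without its TDLN replicate 1). It gave 0 between CD8+ and CD4+ cells in WT TILs, 3 to 5 in the WT TDLN, 1 to 4 in Yap-cKO TILs and 2 to 3 in the Yap-cKO TDLN, 4 to 5 and 5 to 6 between CD45+CD4-CD8- and CD8+ tumor cells in WT and Yap-cKO, and 0 to 1, 0 to 2 and 0 for the interactions in CD4+, CD8+ and CD45+CD4-CD8- cells (CD8+ 2 without WT TIL replicate 3, 1 without WT TIL replicate 4 or Yap-cKO TIL replicate 3; CD4+ 1 without Yap-cKO TIL replicate 3). Of 1006 repeats of the 70 single-gene values followed, 907 kept direction and side of the threshold, 54 gained a call, 44 lost it and 1 changed sign; of 76 other gene values, 37 changed sign under at least 1 alternative. The block also ended the call of Gzmc between tumor and node in Yap-cKO CD4+ cells (1.65, adjusted p = 0.0627), where correlations of same-numbered libraries ranged from -0.367 to 0.347. Between CD8+ and CD4+ cells of the Yap-cKO TDLN it ended the Gzmc call too (adjusted p = 0.0527). There the correlations were 0.736, 0.509, 0.389 and -0.0831. Beyond the block's fewer degrees of freedom and the settings' own construction, the causes were not tested. Depth limits Gzmd, Gzme and Gzmf, which are near the floor of 3 counts, and sequence sharing limits which of them was read.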

Other observations

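Over the 12 group means, among 11131 genes with at least 10 CPM in 1 or more groups, the genes ranked most like Gzmb were Nrgn (Spearman rho 0.965), Fam98b (0.958) and Gm5541 (0.956). For Gzma they were Igsf6 (0.993), Cd244a (0.986) and Cxcl16 (0.986), and for Gzmc Tmem179b (0.930), Ucp2 (0.909) and Gvin1 (0.909). The 12 points are means of 4 libraries that share tissue and sorted population, so the values describe the order of groups and were not tested.

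In 1 WT CD45+CD4-CD8- TDLN library, replicate 4, the summed macrophage and monocyte genes reached 3528 CPM, against 186 to 948 CPM in the other 3; Gzma there was 51.5 CPM and Gzmb 18.8 CPM, each the lowest of the 4.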
